A study of Homo sapiens with 8 samples.

Results

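The regions described here are the LSD1 summits that fell within 6 windows of the human genome holding 7 luminal epithelial genes, ESR1, GATA3, FOXA1, CDH1, EPCAM, KRT8 and KRT18. KRT8 and KRT18 lie next to each other and shared 1 window. The windows were set by position and not by any measured value, but they were chosen with earlier results of these data known. Together they covered 738 kb and held 43 LSD1 regions, of 68148 regions in the whole genome. A CUT&RUN library was made from parental or RCOR2-KO1 cells of MDA-MB-231, a human triple-negative breast cancer cell line, with an antibody against LSD1 and 2 libraries per genotype. Both lines were grown in DMEM with fetal bovine serum, and no further agent was given. The KO1 line carries a CRISPR/Cas9 knockout of RCOR2. The methods describe mixing of several knockout clones. The authors show RCOR2 immunoblots of parental and KO1 cells of this line, but nothing in these lists checks the loss of RCOR2. In CUT&RUN, an MNase tethered to the antibody cuts the chromatin around the bound protein, and the released fragments are sequenced. Each library is represented by a list of summits, where a summit is the single base of highest signal in a peak called against normal rabbit IgG. Summits of the 4 lists at most 500 bp apart were taken as 1 region.

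LSD1 (KDM1A) is a demethylase that removes methyl groups from H3K4, a mark of active promoters and enhancers. It works in the CoREST complex, in which RCOR proteins such as RCOR2 join it to the histone deacetylases HDAC1 and HDAC2. The genes considered here mark the luminal cells of the mammary gland. ESR1 encodes estrogen receptor α, FOXA1 the pioneer factor that opens chromatin for it, and GATA3 a zinc finger factor needed for the luminal fate. CDH1 encodes E-cadherin, the adhesion molecule of epithelial junctions, EPCAM a further epithelial surface adhesion molecule, and KRT8 and KRT18 the keratins that pair to form the filaments of simple epithelia. SNAI1, a repressor of CDH1 during epithelial-mesenchymal transition, is known to bring LSD1 to its target promoters. The series holds no expression values, so whether these genes were silent in the cells was not measured here.

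The lists held 47354 and 54467 summits in parental cells and 49586 and 50119 in KO1 cells. The lists do not give the read depth. The −log10 value of a summit, given by the peak caller, depends on the depth of its library, so summits were compared by their percentile within their own list, with the strongest summit ranked highest. Positions are given on hg19. Parental replicate 2, which had the longest list, ranked the shared regions highest on average, at a mean percentile of 62.3 against 57.1 to 59.0 in the other 3 libraries. With 2 libraries against 2, the smallest p of an exact permutation test is 0.333, so no difference between the genotypes at a single region can be called by this test. In a bulk assay, LSD1 in fewer cells and less LSD1 per cell cannot be told apart. The methods say that the assay was repeated, but neither they nor the labels say whether the libraries came from separate cultures, so the spread between them may be technical.

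At FOXA1, no summit was found in any of the 4 lists. The window of 27 kb on chromosome 14, from 38048 to 38075 kb, lay inside a stretch of 370 kb without a summit. The nearest regions were weak. On the low-coordinate side, a region between 37723275 and 37723305, 325 kb from the window, had percentiles of 12.5 in parental replicate 1 and 25.6 in KO1 replicate 1 and no summit in the other 2 lists. On the other side, a region between 38092955 and 38092978, 18.0 kb from the window, was found in the KO1 libraries only, at percentiles of 13.2 and 15.5. The median distance between neighboring regions over the genome was 13.3 kb, and 1.33% of the 68125 distances were as long as that around FOXA1. These long distances made up 26.8% of the summed distance between regions. An absent summit shows that no peak passed the caller's threshold, not that LSD1 was absent. Of the 6 windows, that of FOXA1 was the only one without a summit.

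The FOXA1 promoter is printed because it belongs to the window without a summit. The KRT8 stretch is printed because the strongest region of all windows lay near it, as described with the keratins. This stretch precedes a start inside the RefSeq span of KRT8 and not the outermost one. Which KRT8 start these cells use was not measured. No other KRT8 start was placed in the window, so this stretch need not be the main KRT8 promoter. Both stretches are the 250 bases before a gene start in RefSeq. Their positions are on build GRCh38.p14 and were not converted to hg19, so their distance to a summit rests on gene lengths alone. The capitals mark CAGGTG or its reverse complement CACCTG, the E-box letters read by SNAI and ZEB repressors. FOXA1 lies at chr14:37595250-37595499 and KRT8 at chr12:52926470-52926719, both on the minus strand.
FOXA1: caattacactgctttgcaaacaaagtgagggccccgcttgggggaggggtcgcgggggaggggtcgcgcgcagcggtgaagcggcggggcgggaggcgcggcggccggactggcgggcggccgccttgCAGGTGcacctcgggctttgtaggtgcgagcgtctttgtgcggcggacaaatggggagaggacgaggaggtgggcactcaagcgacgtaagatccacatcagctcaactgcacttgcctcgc
KRT8: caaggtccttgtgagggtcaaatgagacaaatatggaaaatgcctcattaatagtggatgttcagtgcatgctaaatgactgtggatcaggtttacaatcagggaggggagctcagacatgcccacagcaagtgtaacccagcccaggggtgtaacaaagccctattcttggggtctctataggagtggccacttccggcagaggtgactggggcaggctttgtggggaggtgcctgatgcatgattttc
The FOXA1 stretch held 1 match and 26 CpG dinucleotides, at a GC content of 67.2%. The KRT8 stretch held no match and 1 CpG, at a GC content of 50.4%. Of the 35116 promoter stretches of this length in RefSeq, 17.5% held a match, and the median stretch had 11 CpG. A match is a description of the letters and not evidence of binding. Promoters of ESR1 and GATA3 were matched too but are not shown, because their starts could not be placed in the windows. CDH1, EPCAM and KRT18 had no entry.

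The remaining 5 windows all held regions with a summit in all 4 lists. Such shared regions numbered 26 of 43, or 60.5%, against 52.6% of the regions of the genome. A single region had a summit in each parental library and none in KO1 cells, where 4.24% of all regions were of this kind. No region had summits in both KO1 libraries and none in parental cells, where 3.62% were. The other 16 regions had a summit in 1, 2 or 3 lists in a mixed pattern. The shared regions were of middling rank, with a mean percentile over the 4 libraries from 5.29 to 91.4 and a median of 48.9, below the median of 60.1 for the 35861 shared regions of the genome. Only 1 of the 26, in the keratin window, had a mean of at least 90, a level reached by 10.9% of shared regions in the genome. Summits of the same region lay close together, spanning a median of 139 bp over the 4 libraries, against 103 bp in the genome. The windows held 36 and 37 summits in the parental lists and 35 and 33 in the KO1 lists.

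**Figure D1:**
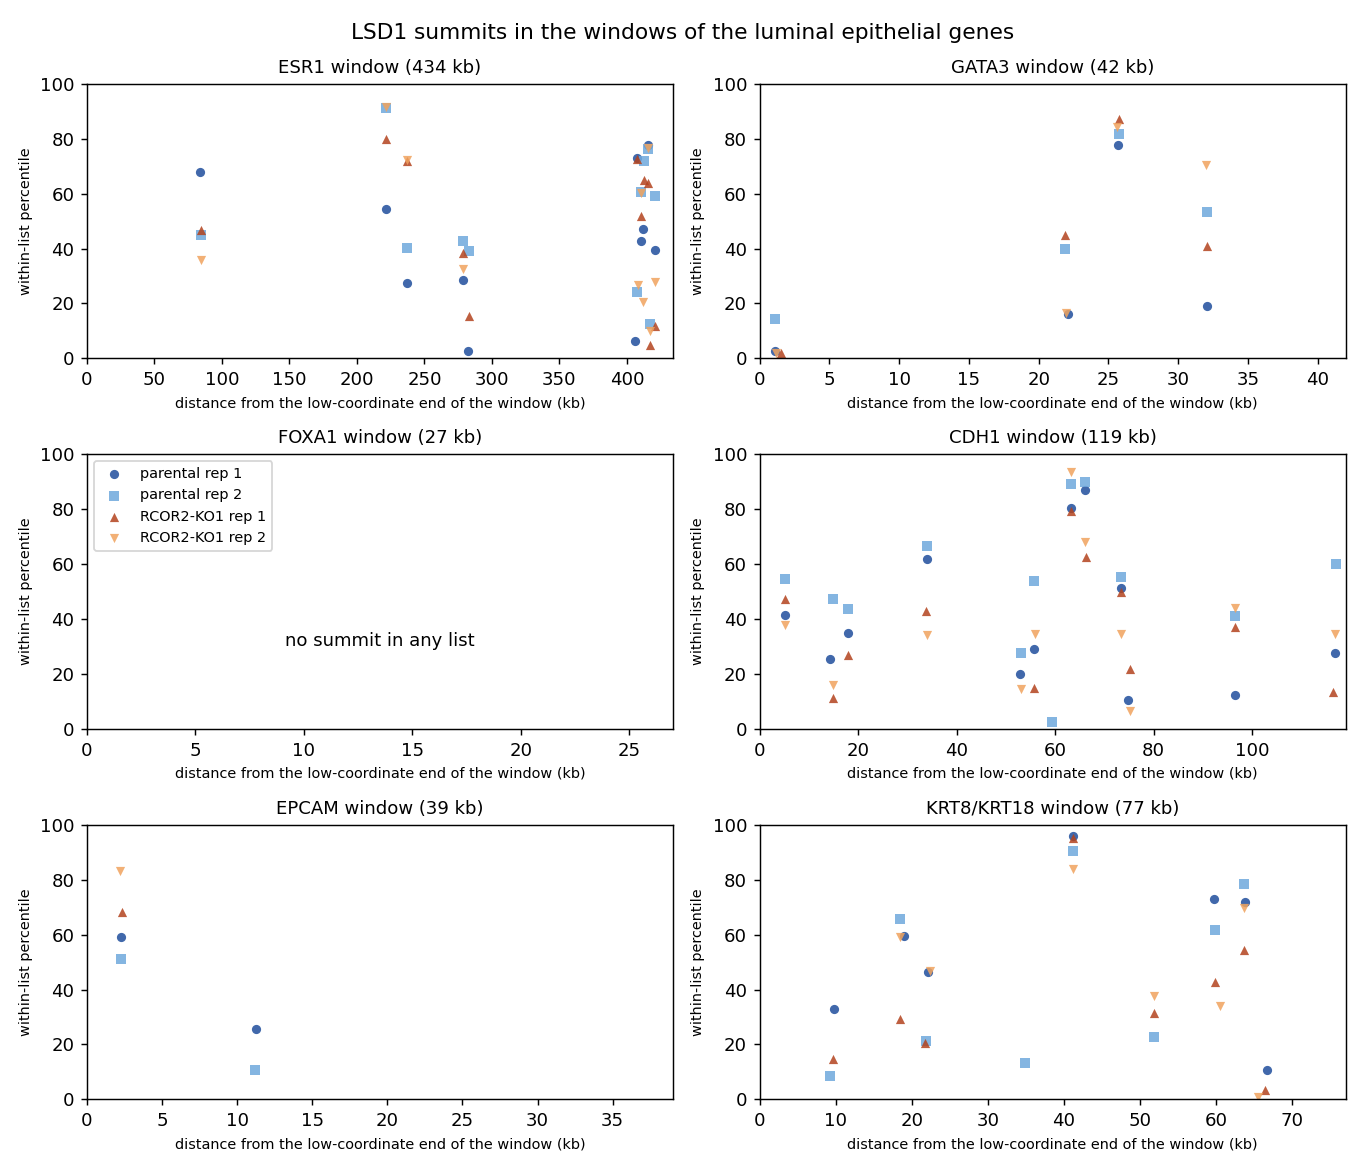
LSD1 summits in the 6 windows. The x axis is the distance from the low-coordinate end of the window in kb and the y axis the percentile of the summit within its own list, with 1 symbol per library. The FOXA1 window holds no summit, the CDH1 window holds 13 regions along most of its 119 kb, and the strongest summits, at 41.1 kb in the keratin window, reach percentiles of 84.0 to 96.0.

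The shared regions were unevenly spread among the genes. GATA3 had 4 in 42 kb, or 9.52 per 100 kb, and CDH1 had 9 in 119 kb, or 7.56 per 100 kb. The keratin window had 3, or 3.90 per 100 kb, EPCAM 1, or 2.56 per 100 kb, and ESR1 9 in 434 kb, or 2.07 per 100 kb. The density of the genome was 1.22 per 100 kb, and that of the 6 chromosomes 1.18 to 1.40 per 100 kb. Stretches of 1 window length on each side gave a local comparison. The GATA3 flanks held no shared region in 84 kb, and those of CDH1 held 1.68 per 100 kb. Shared regions were thus denser inside both windows. The flanks of EPCAM and of the keratins were denser than their windows, at 5.13 and 4.55 per 100 kb. ESR1 had 1.38 per 100 kb in its flanks, below the 2.07 of its window. These densities are a description of these libraries, and no test was made of them. The windows were drawn around genes, and windows around other genes were not compared.

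**Figure D2:**
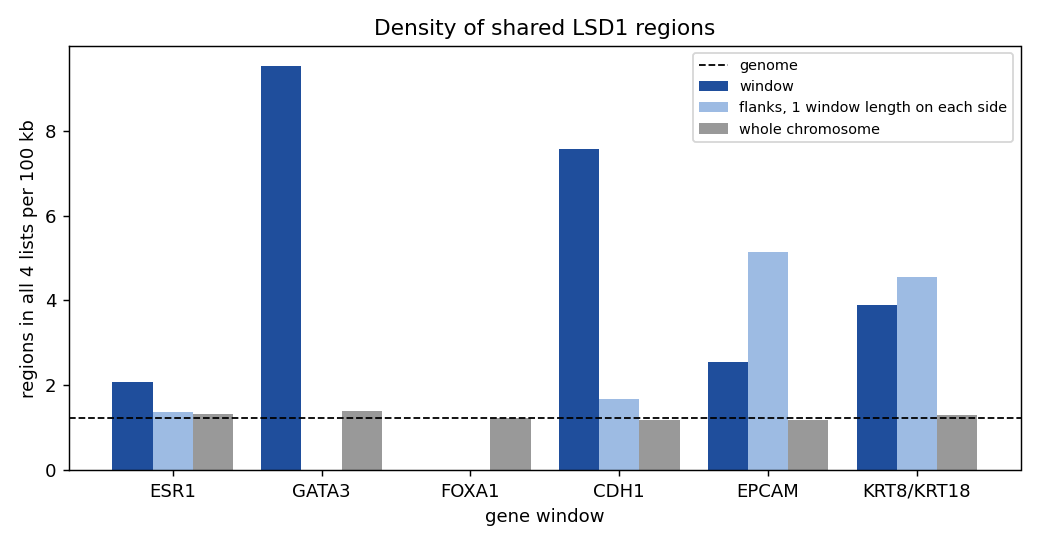
Density of shared LSD1 regions. Bars give the number of regions found in all 4 lists per 100 kb in each gene window, in the flanks of 1 window length on each side and on the whole chromosome, and the dashed line gives the genome at 1.22. GATA3 at 9.52, CDH1 at 7.56 and ESR1 at 2.07 stand above their flanks, whereas EPCAM and the keratins do not. The FOXA1 window and its flanks are at 0.

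The place of the genes within the windows was known only approximately, since no annotation of hg19 was used here. For FOXA1, CDH1, EPCAM and the keratins, the length of the gene or gene pair in RefSeq left 10.4 to 10.7 kb of the window on each side if both sides are equal. Distances to gene starts and ends below rest on this assumption. For ESR1 and GATA3, whose RefSeq gene lengths do not leave such margins, positions are given from the ends of the windows.

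CDH1, on chromosome 16 from 68761 to 68880 kb, had the most regions of any window, 13. None of them lay at the approximate start of the gene. The nearest were at -5.27 kb, upstream of it, between 68766037 and 68766215, and at 4.19 kb, inside the gene, between 68775356 and 68775822. The rest lay further into the gene, except the last, about 7.74 kb past its end. The strongest was about 52.8 kb into the gene, between 68824139 and 68824263. It had percentiles of 80.5 and 89.1 in parental cells and of 79.4 and 93.6 in KO1 cells, so the genotypes overlapped there. The next region lay at about 55.8 kb, between 68827050 and 68827358. Its percentiles were 87.0 and 90.0 in parental cells but 62.4 and 68.2 in KO1 cells, with both KO1 libraries below both parental ones.

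LSD1 ranked lower in KO1 cells at 7 of the 9 shared regions of CDH1, and at 4 of them the genotypes did not overlap. Over all 26 shared regions, both KO1 libraries were below both parental ones at 7, against 22.4% of the shared regions of the genome, and above them at 3, against 19.6%. Of the 7 lower regions, 4 were at CDH1 and 1 each at ESR1, GATA3 and the keratins. The 4 CDH1 regions differed by 11.1 to 25.6 percentile points. Between 68794833 and 68794932, the percentiles were 61.8 and 66.4 in parental cells and 42.9 and 34.1 in KO1 cells, a mean of 64.1 ± 3.28 against 38.5 ± 6.25 (SD, n = 2 libraries each). At the neighboring pair of strong regions, the difference was -23.2 at the second and 1.71 at the first, although they lie close together. Between 68775356 and 68775822, just after the start, the parental percentiles were 25.4 and 47.4 and those in KO1 cells 11.1 and 15.9, and the difference of -22.9 became -11.9 without parental replicate 2. Between 68834375 and 68834393, they were 51.4 and 55.3 against 49.8 and 34.7, so KO1 replicate 1 lay close to the parental libraries, and the difference of -11.1 became -3.54 without KO1 replicate 2.

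Over the 9 shared CDH1 regions, the mean percentile was 46.3 and 62.0 in the parental libraries and 39.8 and 44.2 in the KO1 libraries. The difference of -12.1 depended on parental replicate 2, which had the highest value of the 4 libraries at 7 of the 9 regions, and was -3.51 without it and -20.0 without parental replicate 1. With summits joined at 250 bp, it was -7.23. At the regions between 68794833 and 68794932 and between 68827050 and 68827358, both parental libraries were well above KO1, and the differences without parental replicate 2 were -23.3 and -21.6. The shared regions of the surrounding 10 Mb of chromosome 16, from 60 to 70 Mb, had a median difference of -4.64, and 26.9% of these 119 regions had both KO1 values below both parental ones. Medians of such bins had an SD of 2.82 over the genome. The part of this regional shift in the CDH1 values was not tested.

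The other 5 shared regions of CDH1 overlapped between genotypes. Among them, the region before the start, between 68766037 and 68766215, had percentiles of 41.5 and 54.4 in parental and 47.4 and 37.8 in KO1 cells. Between 68816700 and 68816869, the percentiles were 29.1 and 54.0 against 14.8 and 34.7, and past the end of the gene, between 68877512 and 68877977, they were 27.6 and 60.2 against 13.6 and 34.7. In both places parental replicate 1 lay between the KO1 libraries and parental replicate 2 above them. Only the region near the end of the gene, between 68857479 and 68857603, with 12.5 and 41.1 against 37.1 and 44.0, and the strongest region had higher means in KO1 cells.

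The 4 remaining CDH1 regions were seen in 3 lists or fewer. Of these, 3 were found in 3 lists, at percentiles of 6.52 to 43.7, and 1 in parental replicate 2 alone at a percentile of 2.56. None of them was strong in any library. Between 68778839 and 68778916, the percentiles were 34.9 and 43.7 in parental cells and 26.9 in KO1 replicate 1, with no summit in KO1 replicate 2. Between 68813953 and 68814060, they were 20.0 and 27.5 in parental cells and 14.5 in KO1 replicate 2. Between 68835870 and 68836318, they were 10.7 in parental replicate 1 and 21.9 and 6.52 in KO1 cells.

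EPCAM, on chromosome 2 from 47586 to 47625 kb, had only 2 regions, and they behaved differently. At about -8.32 kb from the start of the gene, upstream of it, a region between 47588224 and 47588331 was found in all 4 lists. It had percentiles of 59.0 and 51.1 in parental cells and of 68.1 and 83.2 in KO1 cells. The genotypes did not overlap, and the KO1 mean was higher by 20.6 percentile points on average (13.1 without KO1 replicate 2 and 28.2 without KO1 replicate 1). The second region lay about 0.617 kb after the approximate start, between 47597201 and 47597232. It was found in both parental lists, at percentiles of 25.5 and 10.7, and in neither KO1 list. No other region of the 6 windows was in both libraries of 1 genotype and neither of the other. Its −log10 values were 8.75 and 5.45, where the lowest of a list was 1.31 to 1.40. The surrounding 10 Mb had a median difference of 0.286.

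KRT8 and KRT18, on chromosome 12 from 53280 to 53357 kb, held the strongest region of all windows. It lay between 53321122 and 53321163, so that the summits of the 4 libraries were within 41 bp. The percentiles were 96.0 and 90.4 in parental cells and 95.1 and 84.0 in KO1 cells, from −log10 values of 80.1, 69.0, 82.5 and 43.4. The genotypes overlapped, and this region was high in every library. It lay about 1.26 kb on the upstream side of the KRT8 start whose promoter is printed above. A second strong region, between 53343694 and 53343742, lay about 1.42 kb inside KRT18. The RefSeq span of KRT8 overlaps KRT18, and its outermost start was about 0.418 kb from this region, whereas the printed stretch precedes a start inside that span. The percentiles of this second region were 71.7 and 78.4 in parental cells and 54.2 and 69.8 in KO1 cells. The genotypes did not overlap, with a difference of -13.0 percentile points, but the gap between KO1 replicate 2 and parental replicate 1 was small, and the difference was -5.28 without KO1 replicate 1 and -20.8 without KO1 replicate 2.

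The keratin window had the most incomplete regions, with 9 of 12 not found in all lists. In 2 places, neighboring summits were split by the joining distance. Between 53298380 and 53298479, parental replicate 2 and both KO1 libraries had summits, at percentiles of 65.8, 29.2 and 59.1, and parental replicate 1 had its own at 53298980, at a percentile of 59.5. Likewise, 3 libraries had a summit between 53339762 and 53339819, at percentiles of 73.1 and 61.7 in parental cells and 42.9 in KO1 replicate 1, and KO1 replicate 2 had one at 53340486 at a percentile of 33.9. Each library thus had a summit in both places. With a joining distance of 1000 bp, they counted as shared, and the mean difference over the keratin window was -12.9 in place of -5.61. The latter became -0.510 without KO1 replicate 1 and -12.5 without KO1 replicate 2. The other incomplete regions were weaker, at percentiles of 0.952 to 37.8. Among these, 1 between 53331843 and 53331892 had 22.6 in parental replicate 2 and 31.6 and 37.8 in KO1 cells, and 1 between 53289269 and 53289796 had 33.0 and 8.53 in parental cells and 14.8 in KO1 replicate 1. The third shared region, between 53301737 and 53302318, overlapped, at 46.3 and 21.4 in parental and 20.6 and 46.8 in KO1 cells. The surrounding 10 Mb had a median difference of -3.04.

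GATA3, on chromosome 10 from 8086 to 8128 kb, was the window in which every region was shared. Its 4 regions lay 1.08, 21.9, 25.6 and 32.0 kb from the low-coordinate end. The strongest, between 8111637 and 8111784, had percentiles of 77.6 and 81.5 in parental cells and of 87.1 and 84.3 in KO1 cells. KO1 exceeded parental there in every pair of libraries, by 6.09 percentile points on average, which is small beside the spread of such differences over the genome, from -24.7 to 24.0 between the 5th and 95th percentiles. Its neighbor between 8107875 and 8108074 varied within both genotypes, at 16.1 and 40.0 in parental and 45.0 and 16.7 in KO1 cells. The region between 8118007 and 8118094 varied likewise, at 19.0 and 53.2 against 40.9 and 70.3. The region nearest the low-coordinate end, between 8087080 and 8087549, was the weakest of the shared regions in the 6 windows, at 2.75 and 14.5 in parental and 2.06 and 1.84 in KO1 cells. The genotypes did not overlap there, but the difference of -6.68 fell to -0.799 without parental replicate 2.

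ESR1, on chromosome 6 from 152001 to 152435 kb, had 12 regions. Of these, 5 were scattered over the first 283 kb of the window, and 7 lay close together near its high-coordinate end, between 152406964 and 152421533. In this group, 5 regions were found in all 4 lists. The highest mean rank belonged to a region 221 kb into the window, between 152222308 and 152222415. Its percentiles were 54.3 and 91.3 in parental cells and 80.0 and 91.4 in KO1 cells, so the parental libraries differed from each other by more than the genotypes did. In the group at the end, the strongest region lay between 152416467 and 152416532, with percentiles of 77.8 and 76.2 in parental and 63.7 and 76.7 in KO1 cells. The genotypes overlapped at both.

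The widest differences between genotypes in the 6 windows were at ESR1, and they went in opposite directions. Between 152237910 and 152238180, the percentiles were 27.3 and 40.2 in parental cells and 71.9 and 72.3 in KO1 cells. The KO1 libraries were thus higher by 38.3 percentile points (33.8 ± 9.13 against 72.1 ± 0.273, SD, n = 2 libraries each), and by 31.9 to 44.8 when any 1 library was omitted. The two-sided p of the exact permutation test was 0.333, as at each region without overlap. Between 152421481 and 152421533, the percentiles were 39.5 and 59.0 in parental and 11.9 and 27.8 in KO1 cells, a difference of -29.4, and of -19.6 to -39.1 when any 1 library was omitted. Both lay outside the 5th to 95th percentiles of the genome. The mean over the 9 shared ESR1 regions hardly differed, at 53.9 ± 4.14 in parental and 52.5 ± 4.56 in KO1 cells, and the surrounding 10 Mb had a median difference of -0.560.

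The other ESR1 regions overlapped between genotypes. Between 152408359 and 152408896, replicate 1 of each genotype was at 73.1 and 72.4 and replicate 2 at 24.1 and 26.7, so libraries of the same genotype stood farther apart than the genotypes. Between 152413054 and 152413370, the percentiles were 47.2 and 71.9 in parental and 64.8 and 20.6 in KO1 cells, and between 152084867 and 152085337 they were 68.0 and 44.8 against 46.9 and 35.7. Both regions thus varied within a genotype. The regions between 152411308 and 152411420, at 42.9 and 60.7 against 51.8 and 60.1, and between 152279636 and 152279767, at 28.5 and 42.9 against 38.3 and 32.4, differed by 4.18 and -0.341 on average. The incomplete regions were weak. A region between 152283568 and 152283888 was missing in KO1 replicate 2 alone, at 2.84 and 39.0 in parental cells and 15.3 in KO1 replicate 1. A region between 152418426 and 152418450 was missing in parental replicate 1 alone, at 12.4 in parental replicate 2 and 4.81 and 9.89 in KO1 cells. The last, found in parental replicate 1 only, was at a percentile of 6.29.

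**Figure D3:**
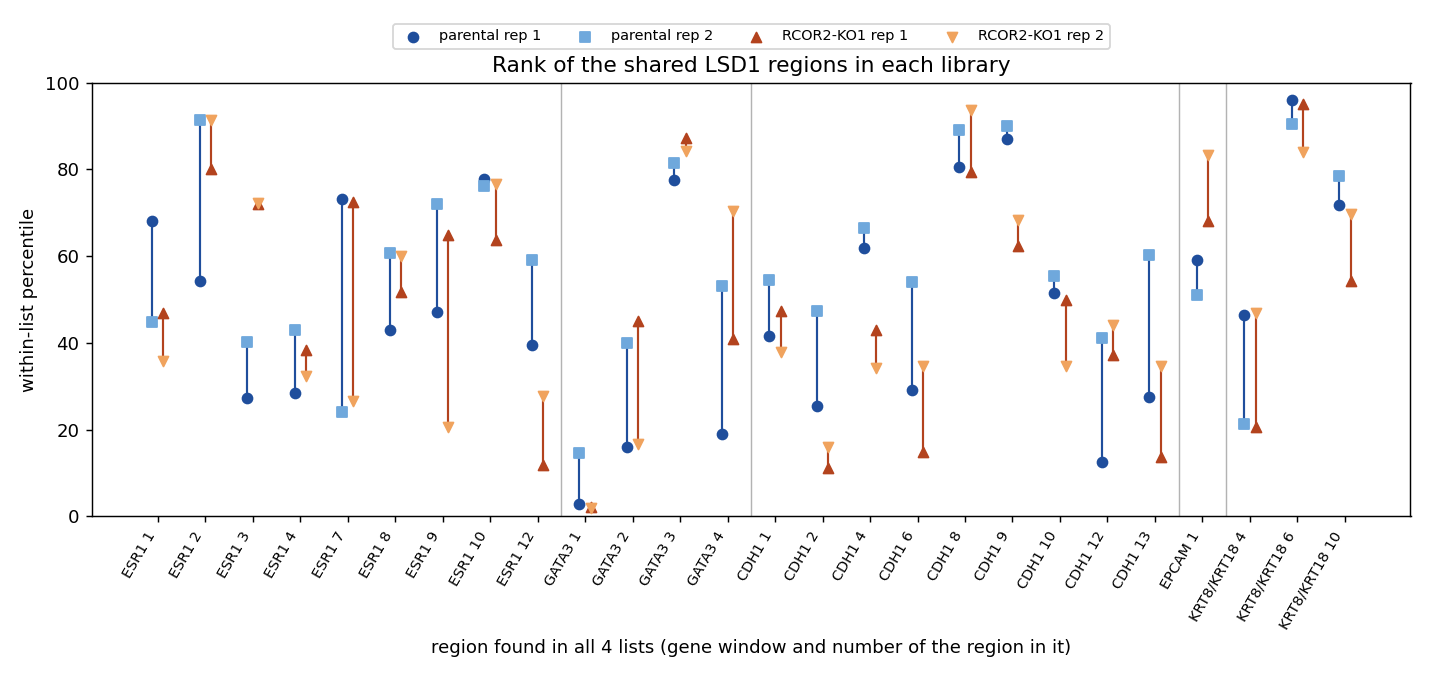
Within-list percentile of the 26 shared regions in each library. Dark and light blue symbols are the 2 parental and red and orange symbols the 2 RCOR2-KO1 libraries, and a line joins libraries of the same genotype. Both KO1 libraries are higher at ESR1 region 3, GATA3 region 3 and EPCAM region 1 and lower at ESR1 region 12, GATA3 region 1, CDH1 regions 2, 4, 9 and 10 and KRT8/KRT18 region 10, and the genotypes overlap at 16 of the 26.

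Over all windows, the KO1 mean was lower at 16 and higher at 10 of the 26 shared regions, where 52.6% of the shared regions of the genome were lower. The differences ran from -29.4 to 38.3 with a median of -4.48, against -0.578 in the genome. The mean percentile of the 26 regions was 48.6 and 57.7 in the parental libraries and 49.0 and 49.9 in the KO1 libraries, so parental replicate 2 stood above the other 3, which lay between 48.6 and 49.9. It had the highest value at 13 of the 26 regions, against 34.1% of the shared regions of the genome. The difference of -3.68 became 0.951 without this library.

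**Figure D4:**
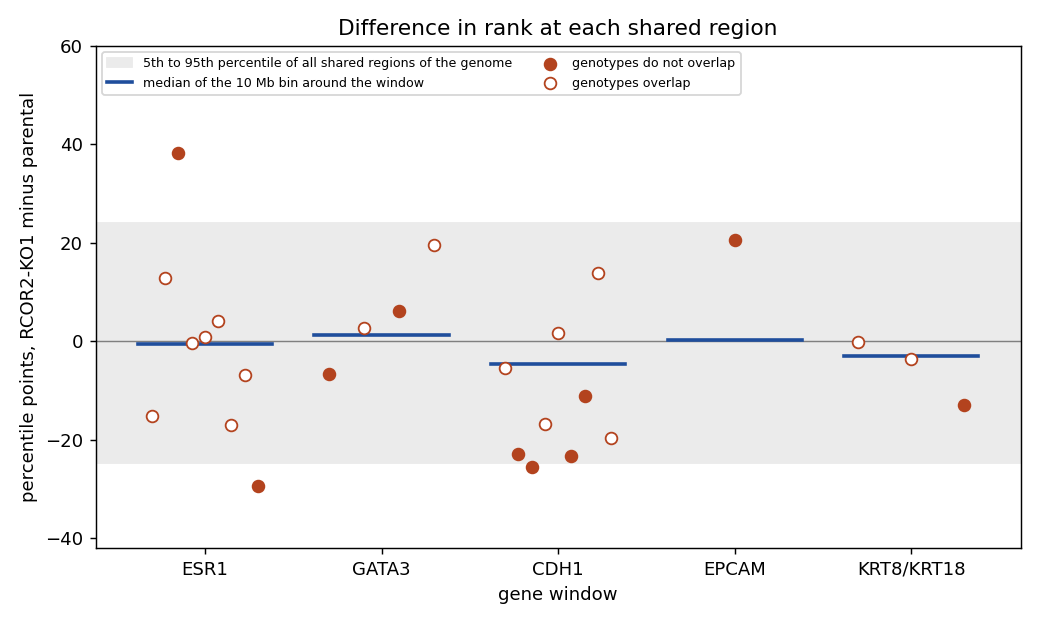
Difference in within-list percentile at each shared region, RCOR2-KO1 minus parental. Filled points mark regions whose genotypes do not overlap, the blue lines give the median of the surrounding 10 Mb, and the gray band holds the 5th to 95th percentile of all shared regions of the genome, -24.7 to 24.0. CDH1 points lie mostly below its regional median of -4.64, and ESR1 has the highest value, 38.3, and the lowest, -29.4.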

How the data were processed

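LSD1 CUT&RUN summit lists of 2 parental and 2 RCOR2-KO1 libraries were used, and the 4 IgG libraries served the authors as input. Per the labels, the processing notes name FastQC 0.11.2, Bowtie2 2.3.3.1, Picard, MACS2 2.1.0 and hg19. The authors called peaks per library and deposited 1 summit of 1 bp per peak with its −log10 of a p-value or q-value. The threshold is not given in the sources used here.

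Percentiles were computed within each whole list, and summits on chromosomes 1 to 22 and X at most 500 bp apart were joined with Python 3.11.15, pandas 2.3.3 and numpy 2.4.6 (1 other summit was left out). A region belonged to a window if any summit lay in it. The joining was checked by removing the KO1 summits of 200 shared regions and the parental summits of 200 others. All were then found in the other genotype only. This outcome was fixed by construction and does not bear on the choice of 500 bp. Windows, members and comparisons were chosen with earlier results of these data known, so no p over the members is given, including the planned one for the number of summits. For single regions, a two-sided exact permutation test over libraries was used. Regions found in both lists of at least 1 genotype were described with their percentiles, and those of fewer lists by number and range, except 5 named after their values were seen. The planned counts at further luminal, epithelial and mesenchymal genes needed an annotation of hg19 and were not run. Which promoters to print from RefSeq was chosen after seeing the data. Alternatives were joining at 250 or 1000 bp, lists reduced to their upper 50% or to the length of the shortest, percentiles over shared regions, the mean of a region's summits, longer and shorter windows, omission of each library, and replicate numbers as a block.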

Additional observations from a re-analysis of the deposited data

How the results depend on the processing

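The number of shared regions, 26, was 19 to 29 under the alternatives that kept all 4 libraries, except in the upper 50% of each list, where it was 8. The upper 50% also gave 3 regions of the parental lists only, 1 of the KO1 lists only and 2 with both KO1 values lower. At a joining distance of 250 bp, there was 1 region of the KO1 lists only and 4 with both KO1 values lower, in place of 7. With the lists cut to the shortest, 1 region was in the KO1 lists only. Windows 10 kb longer at each end held 2 regions of the parental lists only. Fewer summits, narrower joining and longer windows change these counts by construction. The share of all regions of the genome under these alternatives is not given here, so the counts are a description only.

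With each library left out, a single library stands for a genotype. Regions of the parental lists only then numbered 2 to 4 and of the KO1 lists only 0 to 3. Those with KO1 higher numbered 4 to 9 and with KO1 lower 11 to 15. Omitting a library can only add to these counts. The share of all regions of the genome with a library omitted is not given here. The mean difference of -3.68 ranged from -7.86 to 0.951. With all libraries, it was -0.473 with joining at 250 bp and -0.662 in the upper 50%. The difference in the number of summits, -2.50, kept its direction under all alternatives. A replicate block left both at -2.50 and -3.68 by construction. The replicate numbers showed no common effect on rank, with a correlation of 0.00722 between the replicate differences in parental and KO1 cells. This value cannot show whether libraries of the same number were prepared together. At single regions, the direction changed in 4 of 51 values with ranks computed anew, at 2 regions, and in 16 of 104 with 1 library left out, at 11. The other alternatives with all libraries did not move the value of any single region they kept. At the 10 regions without overlap, leaving out a library cannot turn the direction. The mean difference at GATA3, 5.43, was -3.77 without parental replicate 1 and 14.6 without parental replicate 2.

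The depth of the libraries is unknown, and ranks do not show a change common to all summits.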
